A study of Mus musculus with 16 samples.

Results

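*Sox4*, *Sox11* and *Sox12* of the SoxC family, *Sox5* and *Sox6* of the SoxD family, and *Sox8* and *Sox9* of the SoxE family were followed during tenogenic differentiation of mouse iPSC-derived cells and in the Achilles tendon with and without *Scx*. The 7 genes were given by name, and the rule that gave them used no measured value. All 7 were matched by Ensembl identifier and symbol, among 29629 gene identifiers of the single-cell table and 47729 of the tendon table. *Sox13*, also a SoxD gene, and *Sox10*, also a SoxE gene, were not among the 7 and are given only for comparison.

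The cells came from iPSCs of mice that carry a transgene in which GFP is placed under the control of *Scx* (*ScxGFP*). The iPSCs were reprogrammed from embryonic fibroblasts, and the study chose 1 clone for its later work, so that the line is a single clone. Per the study's methods, the iPSCs were treated with CHIR99021, a Wnt agonist, and cyclopamine, a Hedgehog inhibitor, to induce mesodermal cells. These cells were then kept without them and in low serum before T0. From T0 on they were given TGF-β2 at 10 ng/ml, with plates sorted on day 3 (T3), day 6 (T6) and day 9 (T9). Each time point had 3 plates of single cells. The second experiment was bulk RNA of the Achilles tendon of mice aged 2 weeks, 2 wild type (Scx-Wt) and 2 homozygous knockout (Scx-homoKO) littermates. No plates without TGF-β2 were among the later time points, and the cells of these time points were also digested with collagenase, which those of T0 were not. TGF-β2, days in culture and the digestion therefore cannot be told apart.

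The Sox proteins share a DNA-binding domain, the HMG box, and differ by family in what they do with it. SoxC factors are activators of progenitor cells in the mesenchyme and the nervous system. SoxE factors are activators as well, and *Sox9* is the master regulator of cartilage. SoxD factors have no activation domain of their own, pair with each other, and help *Sox9* on the enhancers of cartilage matrix genes. Per the study, progenitors that hold both *Scx* and *Sox9* can form cells of tendon and of ligament, and cartilage cells at the junction with them. *Scx* is a basic helix-loop-helix factor that binds the short DNA word called the E-box, spelled CANNTG.

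The 7 genes lie on 7 chromosomes (GRCm38, GENCODE M21). *Sox11* (ENSMUSG00000063632) spans chr12:27334264-27342574, *Sox4* (ENSMUSG00000076431) chr13:28948919-28953713, *Sox12* (ENSMUSG00000051817) chr2:152393611-152398063 and *Sox5* (ENSMUSG00000041540) chr6:143828425-144781977, all on the minus strand. *Sox6* (ENSMUSG00000051910) spans chr7:115470872-116038796 and *Sox8* (ENSMUSG00000024176) chr17:25565892-25570686 on the minus strand, and *Sox9* (ENSMUSG00000000567) chr11:112782224-112787760 on the plus strand. *Sox4* shares 2616 exonic bases with *Gm26735*, *Sox5* shares 1330 with the genes inside its span, and *Sox8* shares 329 with *2810468N07Rik*, where *Gm26735* and *2810468N07Rik* lie on the opposite strand. The strand setting of the counting is not given, so that reads of *Sox8* and *2810468N07Rik* may not be told apart (1928 and 104 UMIs over the 12 plates, 304 and 202 counts over the 4 tendons). *Gm26735* had 1 UMI and 0 counts.

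RefSeq (GRCm38.p6) gave the start sites of 6 of the 7 genes, 11 starts in all. The 250 bases before the start of *Sox11* (chr12:27342719-27342968, minus strand) and of *Sox5* (chr6:143947107-143947356, minus strand) are shown because these genes had the largest differences between tendons with and without *Scx*. The E-box pattern reads the same on both strands, and each match is in capitals.
Sox11: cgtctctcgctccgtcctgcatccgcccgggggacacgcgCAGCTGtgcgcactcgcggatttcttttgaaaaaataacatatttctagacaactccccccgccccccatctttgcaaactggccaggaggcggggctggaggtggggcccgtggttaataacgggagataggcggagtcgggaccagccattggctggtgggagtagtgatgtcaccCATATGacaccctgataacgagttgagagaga
Sox5: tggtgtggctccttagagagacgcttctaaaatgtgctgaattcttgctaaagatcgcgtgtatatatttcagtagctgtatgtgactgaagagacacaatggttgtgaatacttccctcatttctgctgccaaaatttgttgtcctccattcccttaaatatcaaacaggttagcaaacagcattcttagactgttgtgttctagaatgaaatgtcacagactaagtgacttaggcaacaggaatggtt
The RefSeq start of *Sox11* lies upstream of its GENCODE transcript, and that of *Sox5* inside the span given above. The *Sox11* window held 2 matches, CAGCTG and CATATG, and the *Sox5* window held 0. Of all 32851 starts in the same table, 66.2% held at least 1 match in 250 bases, so that a match is common and describes the letters only.

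The plates held 4594 wells with at least 200 genes and between 1921125 and 4657093 UMIs each, and the tendon samples between 11188270 and 12398560 counts. UMIs mark single mRNA molecules at their 3′ end, so that levels of different genes may be compared without their length. Levels are given as CPM, the UMIs or read counts per 1000000 of the TMM-scaled total, where TMM is edgeR's scaling of libraries to one another. That scaling matters here: with the library totals alone, the median log2 fold change of all genes moved from -0.02 to -0.49 between T0 and T9, and the changes below are relative to the TMM centre. With TMM, 3155 of 6050 called genes were higher at T9 than at T0, and with library totals 1755 of 6223. The same counts were 2279 of 4439 and 1524 of 3893 for T3 against T0, and 125 of 217 and 27 of 90 for T9 against T6. In 7 plates more reads fell on no gene (all 3 of T0, T3-2, T6-1, T6-3 and T9-3) than in the other 5, and 33.9% of the genes tested differed between these kinds of plate. Since every T0 plate was of the first kind, values of the single later plates of that kind are given beside the results. All plates used the same set of well barcodes, so that a cell was identified by its plate and well. Nothing says that the plates of a time point came from separate cultures, and the p-values measure the spread between plates. *Scx* had between 6.40 and 10.5 CPM in the T0 plates and between 607.6 and 807.3 in those of T3, and *Tnmd*, a late tendon marker, was at 0 in all T0 plates and between 69.3 and 199.8 at T9.

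*Sox11*, an activator of progenitor cells, was the most abundant of the 7 genes at T0 and fell at each step. Its level was 783, 997.5 and 888 CPM in the T0 plates, 436, 502 and 407 in those of T3, 254.0, 165 and 220.0 in those of T6, and 74.2, 73.1 and 141 in those of T9. No plate of a time point overlapped with the plates of the time point before it. The log2 fold change was -0.99 from T0 to T3 (SE 0.25, adjusted p = 0.00834, edgeR), -1.07 from T3 to T6 (SE 0.25, adjusted p = 0.0264), -1.14 from T6 to T9 (SE 0.26, adjusted p = 0.0421), and -3.20 from T0 to T9 (SE 0.27, adjusted p = 6.20e-07), a level 9.22 times lower. The plates with more reads on no gene stood at 502 at T3, 220.0 and 254.0 at T6 and 141 at T9, and the others at 407 and 436, 165, and 73.1 and 74.2, so that the level was lower at each later time point within each kind of plate. The first and the last of the 4 calls were kept without any 1 plate. The call between T3 and T6 was lost without T3-1, T3-2, T3-3, T6-2 or T6-3 (adjusted p between 0.0545 and 0.077), and that between T6 and T9 without T6-1, T6-3, T9-1 or T9-2 (adjusted p between 0.161 and 0.204).

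**Figure D1:**
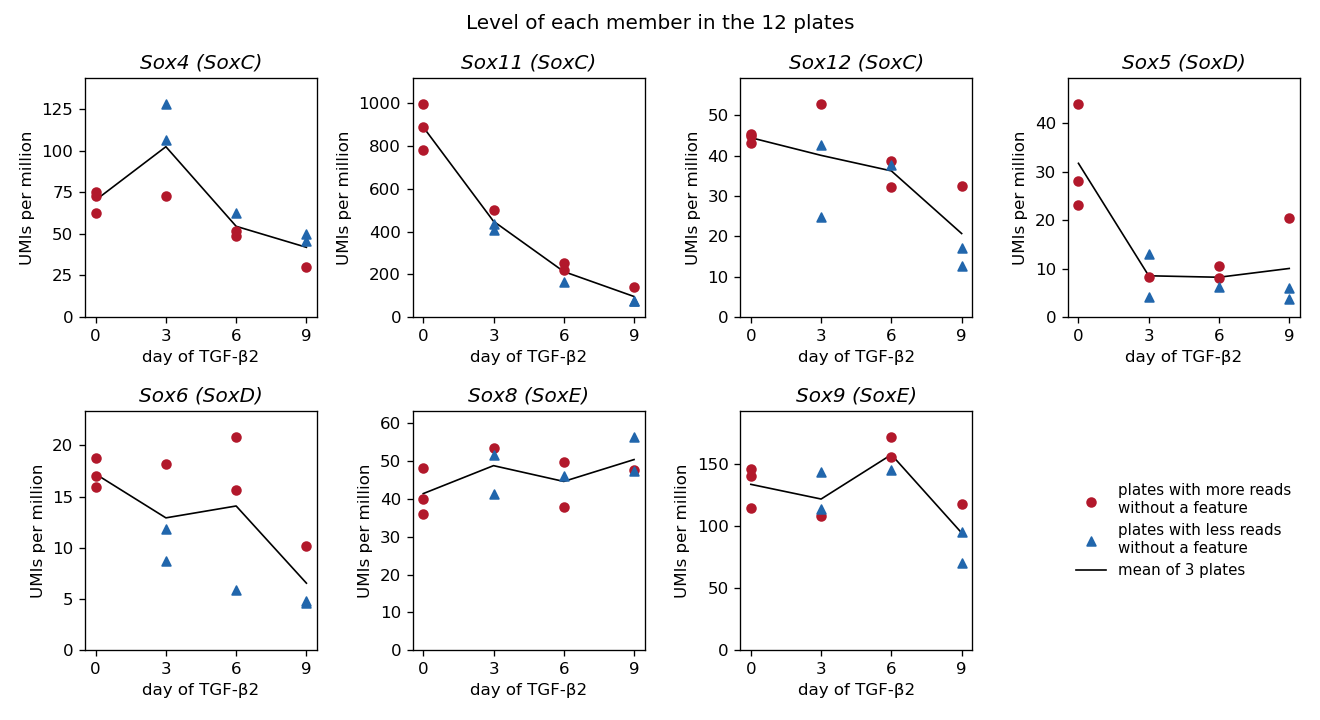
Level of each of the 7 genes in every plate, in CPM of the TMM-scaled total, against the day of TGF-β2 treatment. Each point is a plate, red for plates with more reads on no gene and blue for the others, and the line joins the means of 3 plates. *Sox11* goes from a mean of 889.6 at T0 to 96.3 at T9, while *Sox8* stays between 36.0 and 56.4 in all 12 plates.

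*Sox4*, the nearest SoxC relative of *Sox11* in the mesenchyme, followed another course. Its level was 73.0, 62.6 and 75.4 CPM at T0, 128, 72.6 and 106.6 at T3, 51.9, 62.9 and 49.0 at T6, and 45.8, 49.7 and 30.3 at T9. The difference between T3 and T0 was 0.54 on the log2 scale (SE 0.23, adjusted p = 0.0825) and the T3 plates overlapped with those of T0. T3-2, the only T3 plate with more reads on no gene, stood at 72.6, within the T0 range. Without it the difference was 0.74 (adjusted p = 0.0211, edgeR). All T0 plates are of the kind of T3-2, so that without it time and kind of plate cannot be told apart. *Sox4* fell from T3 to T6 by 0.91 (SE 0.23, adjusted p = 0.0388), with no overlap of the plates, and from T0 to T9 by 0.75 (SE 0.23, adjusted p = 0.0169). The fall from T3 to T6 was lost without T3-1, T3-3, T6-1 or T6-3 (adjusted p between 0.123 and 0.169), and that from T0 to T9 without T0-3 (adjusted p = 0.058) or T9-3 (adjusted p = 0.0603). Over the plates the summed neural markers stood at 662 to 802 CPM for T0, 918 to 1355 for T3, 412 to 576 for T6 and 250.6 to 348 for T9, with *Sox1* and *Sox3* at 0 after T0. *Stmn2*, 1 gene of that list, alone had means of 668, 1129, 443 and 302 CPM in order of time, so that the sum mainly follows this gene. The part of neural markers in the course of *Sox4* was not tested.

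*Sox12*, the weakest activator of the SoxC family, stood at 44.7, 43.2 and 45.4 CPM at T0, 24.8, 52.8 and 42.6 at T3, 38.6, 37.6 and 32.3 at T6, and 17.0, 12.5 and 32.6 at T9. Only the comparison of T9 with T0 passed the test, with a log2 fold change of -1.08 (SE 0.31, adjusted p = 0.0107), and the plates of these groups did not overlap. The single T9 plate with more reads on no gene, at 32.6, was the highest of T9 and below the lowest T0 plate. Without T9-1 the change was -0.96 (adjusted p = 0.0509).

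*Sox5* and *Sox6*, the SoxD partners of *Sox9* in cartilage, were the least abundant of the 7 at each time point by the mean. *Sox5* had 23.2, 27.99 and 44.0 CPM at T0, 4.13, 8.34 and 13.1 at T3, 10.5, 6.21 and 7.98 at T6, and 5.91, 3.76 and 20.4 at T9. Its log2 fold change was -1.84 at T3 (SE 0.50, adjusted p = 0.0125) and -1.61 at T9 (SE 0.49, adjusted p = 0.0152), both against T0, and every later plate was below every T0 plate. These values rest on few molecules, 461 UMIs at T0 and between 70 and 97 at each later time point. Without T0-3 the change to T3 was -1.53 (adjusted p = 0.0611). The change to T9 was lost without T0-3, T9-1 or T9-2 (adjusted p between 0.0559 and 0.0735).

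*Sox6* had 15.9, 17.0 and 18.7 CPM at T0, 11.8, 18.2 and 8.74 at T3, 15.6, 5.82 and 20.8 at T6, and 4.80, 4.596 and 10.2 at T9. At T3 and T6 the plates with more reads on no gene were the high ones, at 18.2, 15.6 and 20.8, around the T0 range, while the others stood between 5.82 and 11.8. The comparison of T9 with T0 passed the test (log2 fold change -1.36, SE 0.43, adjusted p = 0.0190) with no overlap of the plates. It rests on 256 UMIs at T0 and 56 at T9, and was lost without T0-3, T9-1 or T9-2 (adjusted p between 0.0532 and 0.078). Of the 7 genes, *Sox6* differed most between the kinds of plate, by 1.17 on the log2 scale (SE 0.23).

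*Sox9*, the regulator of cartilage, was by the mean the second most abundant of the 7 genes at each time point. Its plates overlapped with those of *Sox4* at T3 and with those of *Sox11* at T6 and T9. It stood at 114, 146 and 140.4 CPM at T0, 143.5, 107.8 and 113.6 at T3, 171.6, 144.8 and 155.8 at T6, and 95.3, 70.2 and 117.5 at T9. The T6 plates lay above those of T9 and of T3, and no comparison between time points passed the test. The nearest was T9 against T0 (log2 fold change -0.50, SE 0.20, adjusted p = 0.0558), followed by T9 against T6 (-0.74, SE 0.20, adjusted p = 0.0865). Without T9-3 both passed, at -0.68 (adjusted p = 0.0139) and -0.90 (adjusted p = 0.0250), and DESeq2 called both with all plates. T9-3, the only T9 plate with more reads on no gene, stood at 117.5, within the T0 range. All T0 plates are of that kind, so that without T9-3 time and kind of plate cannot be told apart for T9 against T0.

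*Sox8*, the SoxE relative of *Sox9*, stood between 36.0 and 56.4 CPM in all 12 plates. The time points overlapped throughout, with means in order of time of 41.4 ± 6.24, 48.8 ± 6.53, 44.6 ± 6.12 and 50.4 ± 5.18 (SD, n = 3 plates). The log2 fold change of T9 against T0 was 0.28 (SE 0.18, adjusted p = 0.227), and with library totals in place of TMM it was -0.21, so that no direction can be given for *Sox8*.

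Counted over the 7 genes, 2 were called between T0 and T3 (33.2% of all genes tested), 2 between T3 and T6 (4.24% of all genes), 1 between T6 and T9 (1.62%) and 5 between T0 and T9 (45.2%). All of these calls were in the direction of a lower later level. From T0 to T9, 5 of 7 were called lower and 0 higher, where 21.6% of all genes tested were called lower. The median log2 fold change of the 7 genes from T0 to T9 was -1.08, beside -0.02 for all genes tested. Between T3 and T0 it was -0.14, beside 0.01.

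The T0 plates held 1228 ± 116 CPM of the 7 genes together, those of T3 783 ± 36.1, those of T6 528 ± 61.9 and those of T9 320.2 ± 69.9 (SD, n = 3 plates). *Sox11* made up 72.3% ± 2.32 of the UMIs of the 7 genes at T0 and then, in order, 57.2% ± 3.80, 40.04% ± 4.21 and 29.3% ± 5.27. *Sox9* made up 10.8% ± 0.445, 15.6% ± 2.48, 29.9% ± 0.968 and 29.4% ± 3.43 of them. The plates of *Sox11* and *Sox9* overlapped in level at T6 and at T9. By family, SoxC went from 1004 ± 101 to 159 ± 39.3, SoxD from 49.0 ± 12.3 to 16.6 ± 12.2, and SoxE from 175 ± 10.9 to 144.7 ± 19.3 between T0 and T9. In the order of levels, *Sox11*, *Sox9* and *Sox4* were each apart from their neighbours at T0, and *Sox12*, *Sox8* and *Sox5* overlapped in turn. From *Sox8* down to *Sox6*, all neighbours overlapped at T9.

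**Figure D2:**
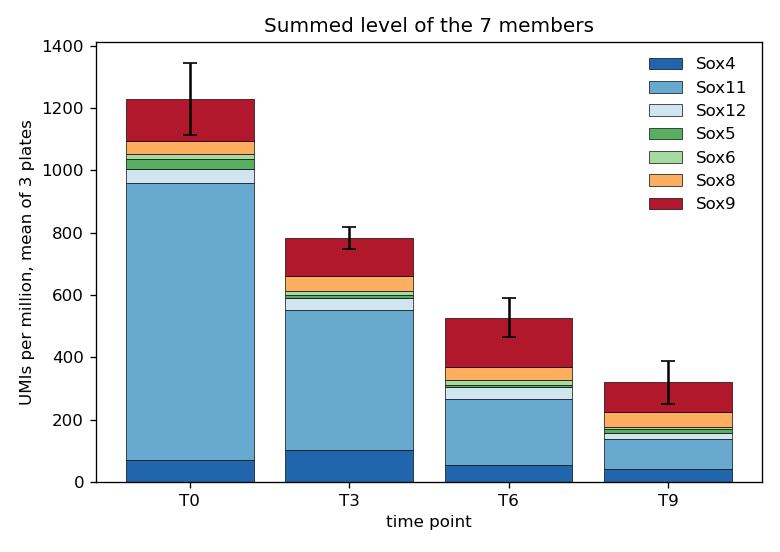
Stacked mean levels of the 7 genes at each time point, in CPM, with the SD of their sum over 3 plates as the error bar. The sum goes from 1228 at T0 to 320.2 at T9, and the light blue band of *Sox11* narrows most, from 889.6 to 96.3.

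Shares of cells were compared after each cell had been thinned to 3000 UMIs, since the median depth was 10175 UMIs for T0 cells, 5703 for T3 cells, 8794 for T6 cells and 7900 for T9 cells. Thinning left 1071, 1038, 1081 and 1111 cells. The share of T0 cells with a UMI of *Sox11* was 89.3% ± 2.55, that of T3 cells 58.9% ± 16.2, that of T6 cells 40.02% ± 9.77 and that of T9 cells 19.5% ± 8.90 (SD, n = 3 plates). Without thinning, these shares were 95.3%, 71.2%, 65.2% and 33.6%. The share was lower in all 9 treated plates than in all 3 plates of T0, by 49.9 percentage points on average (exact two-sided permutation test, p = 0.00909, the smallest that 3 against 9 plates can give, 0.0318 after adjustment over the 7 genes). *Sox5* had the same p and adjusted p, with a UMI in 9.80% of T0 cells and in 1.99% of the cells of the treated plates. Among the plates with more reads on no gene, 3 against 4, the smallest p possible is 0.0571, and both genes reached it. With cells thinned to 5000 UMIs *Sox9* passed as well, with a difference of -13.8 percentage points in place of -6.95 (exact permutation test, adjusted p = 0.0424).

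For the other 5 genes the shares in the T0 plates and in the treated plates were 14.9% and 8.50% for *Sox12* (exact p = 0.0455, adjusted 0.106), 22.9% and 15.3% for *Sox4* (exact p = 0.109), and 26.4% and 19.5% for *Sox9* (exact p = 0.0818). They were 4.67% and 3.27% for *Sox6* (exact p = 0.291) and 13.1% and 12.1% for *Sox8* (exact permutation p = 0.6). Among all cells with a UMI of *Sox11*, the median was 11 UMIs at T0 with a highest cell of 61, and 3, 2 and 2 UMIs at T3, T6 and T9. The median was 2 UMIs of *Sox9* at T0, T3 and T6 and 1 at T9, and 1 for the remaining genes at every time point. At T0, 892 of 1147 cells held at least 5 UMIs of *Sox11*, 133 of *Sox9* and 18 of *Sox4*. In order of time, the later cells with at least 5 UMIs numbered 289, 173 and 25 for *Sox11* and 58, 110 and 52 for *Sox9*, with highest cells of 24, 38 and 10 UMIs and of 18, 45 and 21.

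Some T0 wells held markers of other cells. At T0, 73 wells held at least 4 of 8 pluripotent markers and 54 others at least 4 of 8 epithelial markers, and over the plates the summed level of the pluripotent list was 322 to 635 CPM for T0, 110 to 151 for T3, 10.1 to 127 for T6 and 0.319 to 385 for T9, with none of its 8 genes at 0 in any time point. The epithelial list went from 362 to 456 at T0 to between 21.9 and 173 later. How often the Sox genes were detected in these wells depended on the gene. *Sox11* was detected in 43.8% of the thinned pluripotent-marker wells (32 of 73, exact Clopper-Pearson 95% interval 32.2 to 55.9%), 55.8% of the epithelial-marker wells (29 of 52) and 94.7% of the remaining T0 wells (896 of 946). *Sox9* was detected in 8.22% (6 of 73), 17.3% (9 of 52) and 28.3% (268 of 946), with median depths of 18066, 14450.5 and 9743.5 UMIs before thinning. *Sox5* was found in 1 of the 73 pluripotent-marker wells and in 10.99% of the remaining wells (104 of 946). *Sox8* was found in 12.3% (9 of 73), 15.4% (8 of 52) and 13.002% (123 of 946), so that its share in the remaining wells cannot be read apart from that in wells of other cells. Intervals cover counting error only. Without all wells of either marker list, 6 of the 7 genes were called lower at T9 than at T0, *Sox9* among them (log2 fold change -0.65, adjusted p = 0.0129), and *Sox11* changed by -3.33.

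The genes whose levels over the 12 plates were most like those of each Sox gene are given as a description. They share the plates, their depth and the time course. For *Sox11* these were *Pclaf* (Pearson r = 0.99), a factor of DNA replication that went from 241 to 44.4 CPM between T0 and T9, *Top1* (r = 0.98), a topoisomerase, and *Gjc1* (r = 0.98), a gap junction gene. For *Sox4* they were *Stmn2* (r = 0.97), a microtubule regulator on the neural list with its highest mean at T3 (1129 CPM), *Gm12504* (r = 0.96) and *Sh3bgrl2* (r = 0.95). The nearest to *Sox12* were *Tnks* (r = 0.96), *Sh3rf1* (r = 0.95) and *Mast2* (r = 0.94), to *Sox5* *Zfp451* and *Hus1* (both r = 0.96) and *Eya3* (r = 0.94), and to *Sox6* *BC005561*, *Ankhd1* and *Smchd1* (all r = 0.96). *Sox9* had *Zfp114*, *Mgrn1* and *Dzip3* (r = 0.92 to 0.94). *Sox8* had the least close neighbours, *Zfp747* (r = 0.88), *G6pc3* (r = 0.83) and *Ntmt1* (r = 0.82). Among the 7 genes themselves, r was 0.78 for *Sox11* with *Sox12* and -0.66 for *Sox8* with *Sox9*.

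Whether the Sox genes went with *Scx* in the same cells was asked within each treated plate, by comparing the summed UMIs of cells with at least 1 UMI of *Scx* (Scx+) and without one (Scx-). There were 933, 909 and 447 Scx+ cells and 218, 240 and 700 Scx- cells at T3, T6 and T9. Scx+ cells were deeper, with a median of 5952 against 4679.5 UMIs at T3, 9278 against 7455 at T6 and 8710 against 7467 at T9, and a cell without a UMI of *Scx* may still have expressed it.

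*Sox9* was higher in Scx+ cells. Its level was 121.6 ± 23.1 against 94.6 ± 42.4 CPM at T3, 157 ± 13.9 against 100.5 ± 3.58 at T6 and 118 ± 47.9 against 67.6 ± 7.53 at T9 (SD, n = 3 plates). It was higher in 8 of 9 plates, the exception being T3-2 with 100.7 against 129. The log2 fold change was 0.59 (SE 0.12, adjusted p = 0.00757, edgeR with plate as a block), and *Sox9* was the 1 gene of the 7 called, where 2.74% of all genes tested were. With every cell thinned to 3000 UMIs it was 0.87 (adjusted p = 1.04e-07). Within single time points the difference was 0.35 (SE 0.23) at T3, 0.65 (SE 0.21) at T6 and 0.77 (SE 0.21) at T9, and none of these passed the test (adjusted p = 0.624, 0.239 and 0.141).

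*Sox11* was higher in Scx+ cells in all 9 plates but by less. Its level was 452 against 336 CPM at T3, 203 against 186 at T6 and 96.2 against 87.7 at T9, with a log2 fold change of 0.23 (SE 0.07, adjusted p = 0.0765). With thinned cells it passed the test (0.40, adjusted p = 0.00286), and without the wells that held other cells' markers it was 0.12 (adjusted p = 0.613). *Sox8* went the other way in 7 of 9 plates (log2 fold change -0.30, SE 0.13, adjusted p = 0.319). The differences of *Sox12* (-0.18, SE 0.16), *Sox4* (-0.04, SE 0.11), *Sox5* (-0.32, SE 0.38) and *Sox6* (0.61, SE 0.40) did not pass the test.

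**Figure D3:**
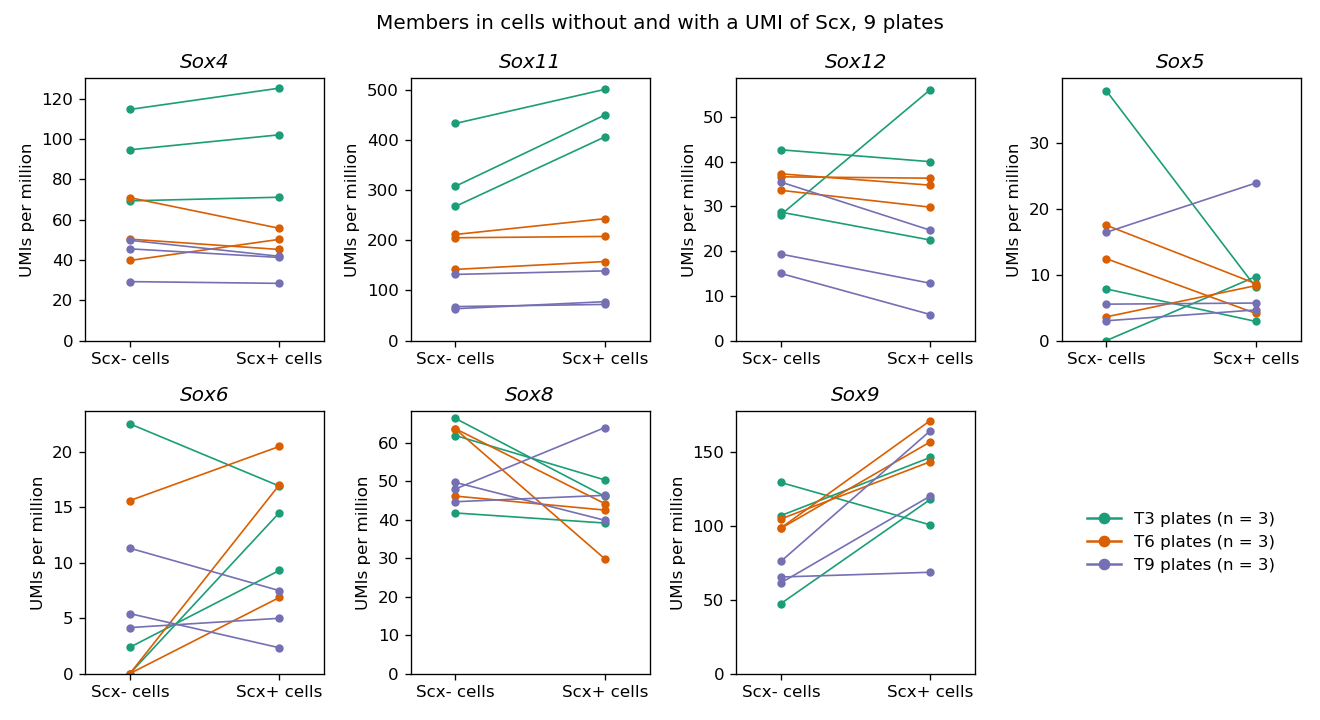
Level of each of the 7 genes in cells without (Scx-) and with (Scx+) a UMI of *Scx*, in CPM, with a line for each of the 9 treated plates coloured by time point. The lines of *Sox9* rise in 8 of 9 plates and those of *Sox11* in 9 of 9, while those of *Sox5* and *Sox6* cross.

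In cartilage *Sox9* acts with *Sox5* and *Sox6*, and the same comparison was made between cells with and without a UMI of *Sox9*. Of the other 6 genes, 0 were called over all plates in either edgeR or DESeq2 and 0 had an unadjusted p under 0.05 in edgeR, where 0.647% of all genes tested were called. The log2 fold changes went from -0.14 (*Sox12*, SE 0.11) to 0.30 (*Sox6*, SE 0.21). DESeq2 gave no adjusted p for *Sox5* and *Sox6*. Within single time points none of the 6 passed either, and 2 had an unadjusted p under 0.05. *Sox6* was higher in *Sox9*+ cells in all 3 T3 plates, at 21.1 ± 9.66 against 9.57 ± 2.09 CPM (SD, n = 3, log2 fold change 1.15, SE 0.39, adjusted p = 0.243, edgeR). *Sox12* was lower in them in all 3 T6 plates, at 29.6 ± 0.521 against 42.2 ± 6.99 CPM (log2 fold change -0.50, SE 0.20, adjusted p = 0.675). The difference of this contrast between T0 and the treated plates was called for 0 of the 6 by either tool. *Scx* was 0.45 higher on the log2 scale in *Sox9*+ cells over all 12 plates (SE 0.14, adjusted p = 0.200, edgeR) and was not called in this split. Cells with a UMI of each of *Sox5*, *Sox6* and *Sox9* numbered 35 of the 1147 T0 cells, and in order of time 2 of 1151, 4 of 1149 and 1 of 1147 later cells. Cells with all 3 SoxC genes numbered 237, 90, 86 and 13. If the genes were detected independently of each other, the first set would number 19.1, 0.583, 2.23 and 0.388 cells in order of time. The SoxC set would number 203.4, 56.4, 68.2 and 8.40, so that the expected numbers fall after T0 as well. These numbers are without thinning and move with the depth of the cells.

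Matrix genes of cartilage that *Sox9*, *Sox5* and *Sox6* are known to activate were counted in the cells. Of 16 such genes, 6 were abundant enough to test. From T0 to T9, 2 rose (*Col9a2* by 3.64 and *Col11a1* by 2.99 on the log2 scale) and 3 fell, 5 of 6 where 45.2% of all genes tested were called. The log2 fold change was -5.28 for *Hapln1*, which links proteoglycan to hyaluronan, -4.07 for *Col2a1*, the main collagen of cartilage, and -1.15 for *Wwp2*, the host gene of a cartilage miRNA. *Col11a1*, a fibril collagen that tendon also makes, had 38.3 ± 1.54 CPM at T0 and 305 ± 101 at T9, and *Col2a1* 10.9 ± 0.753 and 0.647 ± 0.525 (SD, n = 3). The chondrocyte markers, all of which are also on this list, summed to between 46.8 and 53.1 CPM at T0. They summed to between 6.99 and 13.5 later, with *Col9a1* and *Matn1* at 0 in every later plate. From T0 to T3, where 33.2% of all genes were called, 2 rose (*Col11a1* by 2.24, *Col9a2* by 1.94) and 2 fell (*Hapln1*, log2 fold change -4.02, and *Wwp2*, -1.07). The list's median log2 fold change from T0 to T9 was -0.33, beside -0.02 for all genes.

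Of 11 cofactors and modulators of *Sox9*, 8 were tested in the cells. From T0 to T9, 3 fell: *Med25*, a Mediator subunit, by 1.16, and the histone acetyltransferases *Ep300* by 0.93 and *Crebbp* by 0.88 on the log2 scale. That is 3 of 8 lower, where 21.6% of all genes tested were. From T0 to T3, *Runx2*, the regulator of bone, rose by 2.24 and *Med25* fell by 0.63. All 3 tested genes of a short list of SoxC targets fell from T0 to T9, *Tubb3*, a neuronal tubulin, by 3.33, *Tead2*, a partner of Yap, by 2.01, and *Ezh2*, a Polycomb methyltransferase, by 1.97, beside the same 21.6% of all genes. *Tubb3* is also on the neural list, which summed to between 662 and 802 CPM at T0 and between 250.6 and 348 at T9. Among the other Sox genes 4 of 12 were tested. *Sox13*, the SoxD gene outside the 7, fell from 57.9 ± 3.44 CPM at T0 to 3.04 ± 1.67 at T3 (log2 fold change -4.17, adjusted p = 8.70e-05), beside -1.84 for *Sox5*. *Sox17*, an endoderm and endothelial gene, rose from 1.34 ± 1.03 CPM at T0 to 19.0 ± 7.71 at T9 (SD, n = 3, log2 fold change 3.75, adjusted p = 0.00486). It was at 0 in all T3 plates and spread from 0.776 to 29.5 CPM over those of T6.

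In the Achilles tendon, the targeted gene was checked first. *Scx* had 1151 and 996 counts in the Scx-Wt samples and 287 and 296 in the Scx-homoKO samples, 3.68 times lower (log2 fold change -1.88, adjusted p = 0.000429, edgeR), and *Tnmd*, which *Scx* activates, was 4.93 times lower (adjusted p = 0.000284). *Scx* was not at 0, and which part of the gene is deleted is not given in the sources used here. Tenocyte markers summed to 165555 and 161319 CPM in Scx-Wt and 88057 and 106056 in Scx-homoKO. The groups differed in other cells' RNA as well. Schwann and neural crest markers summed to 642 and 675 CPM in Scx-Wt, 5750.4 in Scx-homoKO-1 and 63.4 in Scx-homoKO-2. Skeletal muscle markers summed to 34898 and 64179.5 in Scx-Wt and 80315 and 87651 in Scx-homoKO, neural markers to 158 and 178 and to 703 and 656, and chondrocyte markers to 759 and 746 and to 54.4 and 32.1. In bulk RNA, fewer cells of a type and less RNA per cell cannot be told apart, and the part of these cells in the results that follow was not tested.

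Of the 7 Sox genes, 0 were called between Scx-homoKO and Scx-Wt in edgeR or in DESeq2, where 3.84% of all genes tested were called in edgeR, and 2 had an unadjusted p under 0.05, as 17.2% of all genes had. These were *Sox11* and *Sox5*, which were also the 2 genes of the 7 whose groups did not overlap, where 49.3% of all genes did not. *Sox11* had 80 and 93 counts (6.80 and 7.76 CPM) in Scx-Wt and 205 and 161 (16.5 and 14.2) in Scx-homoKO. It was 1.07 higher on the log2 scale (SE 0.27, adjusted p = 0.0663), and the value without each sample in turn went from 0.97 to 1.18. The neural markers were higher in the same 2 samples, at 703 and 656 CPM, and their part in *Sox11* was not tested. *Sox5* had 32 and 54 counts (2.72 and 4.51 CPM) in Scx-Wt and 13 and 15 (1.04 and 1.32) in Scx-homoKO, with a log2 fold change of -1.60 (SE 0.62, adjusted p = 0.219). Summed chondrocyte, tenocyte, endothelial and pluripotent markers were also lower in both knockout samples. Those of neural and skeletal muscle cells, among others, were higher. The part of any of these lists in *Sox5* was not tested.

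The other 5 genes overlapped between the genotypes. *Sox4* had 172 and 122 counts in Scx-Wt and 137 and 154 in Scx-homoKO. *Sox12* had 212 and 260 against 347 and 204. *Sox6* had 372 and 518 against 373 and 494. For each of these 3 genes a knockout sample lay between or below the wild-type samples. *Sox8* had 53 and 82 against 94 and 75, and *Sox9* 42 and 21 against 34 and 32, with log2 fold changes of 0.32 (SE 0.38) and 0.06 (SE 0.59). With 21 to 42 counts per sample, *Sox9* was among the least precise of the 7. *Sox10*, the SoxE gene of Schwann cells, had 65 and 72 counts in Scx-Wt, 416 in Scx-homoKO-1 and 15 in Scx-homoKO-2, in step with the Schwann markers.

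**Figure D4:**
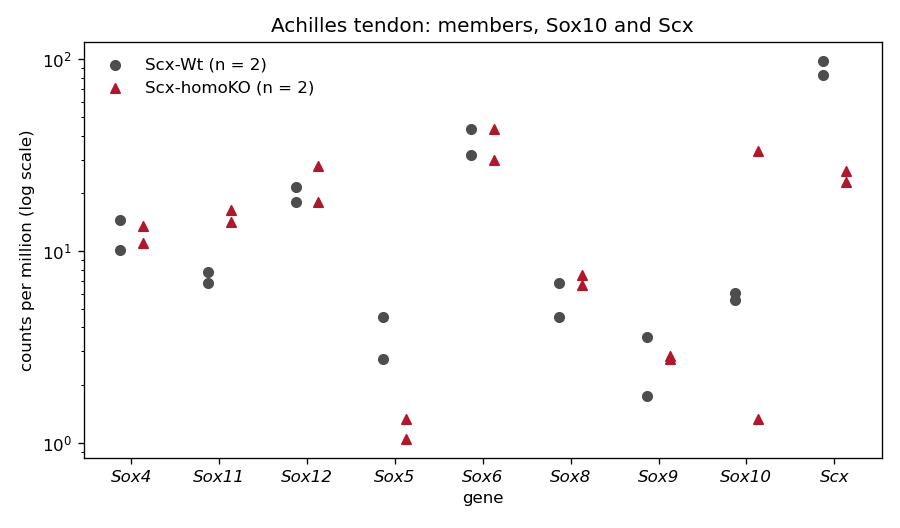
Level of the 7 genes, *Sox10* and *Scx* in the 4 Achilles tendon samples, in CPM on a log scale, with a point for each sample. The Scx-homoKO samples lie above the Scx-Wt samples for *Sox11*, at 16.5 and 14.2 against 6.80 and 7.76, and below them for *Sox5*, and *Sox10* spreads from 1.32 to 33.4 within the knockout.

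As RPKM, which divides counts by exon length and library total, the order in the tendon was not that of the cells. *Sox12* was highest in Scx-Wt (4.05 and 4.87), followed by *Sox4* (3.05 and 2.12), *Sox6* (2.13 and 2.92) and *Sox8* (1.44 and 2.195), of which *Sox4*, *Sox6* and *Sox8* overlapped. *Sox11* stood at 0.818 and 0.934 and *Sox9* at 0.863 and 0.424, overlapping with each other, and *Sox5* was lowest at 0.189 and 0.314. *Sox11*, first among the 7 in the cells at T0, was the fifth in the wild-type tendon by the mean. The tables of the cells and of the tendons were made separately with different protocols, and no test was made between them.

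The cartilage matrix genes were lower in the knockout tendon. Of 16, 14 were tested, 9 fell and 0 rose, where 3.84% of all genes were called and 2.07% called lower, and the median log2 fold change was -1.82, beside -0.00 for all genes. *Ucma*, made by resting chondrocytes, had 26.4 ± 2.53 CPM in Scx-Wt and none in Scx-homoKO, at least 210-fold lower (against 3 counts over both samples). *Col2a1* fell from 618 ± 10.6 to 18.0 ± 7.41 (SD, n = 2, log2 fold change -5.09), and the log2 fold change was -4.34 for *Col11a2*, -3.99 for *Matn3*, a matrilin of growth cartilage, and -3.87 for *Scrg1*. In the same samples the log2 fold changes of *Sox9* (0.06, SE 0.59), *Sox6* (-0.03, SE 0.23) and *Sox5* (-1.60, SE 0.62) did not pass the test. The 5 genes that did not pass were *Col9a1*, *Col9a2*, *Col9a3*, *Cnmd* and *Wwp2*. Of the chondrocyte markers, 4 of the 7 tested fell and 0 rose. Every gene of that marker list is also on the cartilage list, so that this is not a separate observation.

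**Figure D5:**
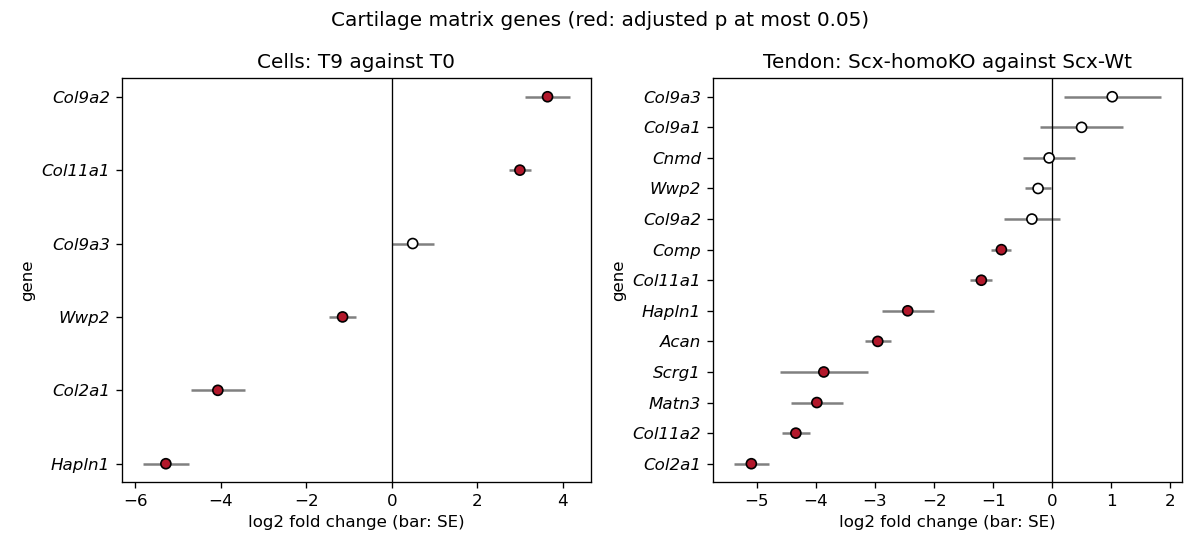
Log2 fold changes of the tested cartilage matrix genes with their SE, in cells (T9 against T0, left) and in tendon (Scx-homoKO against Scx-Wt, right), with red points for an adjusted p of at most 0.05. *Ucma*, with no counts in the knockout, is left out. Genes fall on both sides of 0 in the cells, while in the tendon the red points all lie below 0, down to -5.09 for *Col2a1*.

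Of the 11 *Sox9* cofactors, 10 were tested in the tendon. *Arid5a*, a chromatin cofactor of *Sox9*, rose by 1.13 on the log2 scale (17.6 to 38.5 CPM, adjusted p = 0.0104), and *Barx2*, a homeobox partner in cartilage, fell by 2.24 (23.2 to 4.90, adjusted p = 0.00174). Of the SoxC targets, *Dcx*, a gene of migrating neurons, rose from 0.545 ± 0.410 to 7.69 ± 2.52 CPM (SD, n = 2, log2 fold change 3.79, adjusted p = 0.0114), and *Ezh2* (0.49, SE 0.23) and *Tead2* (0.08, SE 0.27) did not pass. *Dcx* is also a neural marker, and the neural list was higher in both knockout samples. The adjusted p of the 5 other Sox genes tested was between 0.298 and 0.494.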

How the data were processed

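The authors deposited UMI counts per gene and well for the 12 plates of sorted single cells (CEL-Seq2) and read counts per gene for the 4 Achilles tendon samples. Per the labels and the study's methods, reads of the cells were mapped to GRCm38 with HISAT2 2.2.1, counted with featureCounts and collapsed with UMI-tools 1.0.1, and reads of the tendons with HISAT2 2.0.4 and featureCounts 1.5.0. The strand setting of the counting is not given in the sources used here. UMIs count molecules at the 3′ end, so that reads from overlapping genes there can be misassigned, and reads that fell on no gene are absent from the totals.

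Wells with at least 200 genes were kept and their UMIs summed per plate. The sums of all 12 plates were tested in 1 fit, and the tendons in another, with edgeR 4.0.16 (quasi-likelihood, TMM, filterByExpr, Benjamini-Hochberg over all genes tested, call at an adjusted p of at most 0.05). The SE of a log2 fold change was taken from it and the F statistic. Cells with and without a UMI of *Scx* or *Sox9* were summed within plates and compared with plate as a block. Shares of cells were taken after thinning to 3000 UMIs. DESeq2 1.42.0 was an alternative, beside other scalings, filters, a replicate block and the omission of each replicate. Fits with library totals were chosen after seeing the data. The scripts were tested on simulated data. Tendon levels per kilobase used the exonic length in GENCODE M21. R 4.3.3, Python 3.11.15, scipy 1.17.1 and pandas 2.3.3 were used.

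The 7 genes and the lists were chosen with earlier results of these data known. Each of the 7 was described in every plate or sample. Other genes were named only from the lists, with values for at most 5 called genes a list by the size of the change, or as the 3 genes closest to a member by Pearson's r of the log2 level with 1 added, with *Scx* and *Tnmd* for reference. *Sox10*, *Ezh2*, *Tead2* and the cartilage genes that did not pass were added after their values were seen. Correlations of same-numbered plates went from -0.57 to 0.51 and those of other plates from -0.57 to 0.50, so that the replicate numbers gave no sign of pairs. In the tendons the correlation was 0.079 for same-numbered samples. With 2 samples per genotype the others must mirror it, at -0.079, so that pairs could not be told from it. All replicates differed by more than sampling noise (chi-square per gene 3.18 to 57.7). Intervals cover counting error only.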

Additional observations from a re-analysis of the deposited data

Results flagged for a closer look

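*Sox4* had small ratios of opposite sign at different time points in the comparisons within plates. Between Scx+ and Scx- cells, its log2 ratio of levels (with 1 added to each level) was above 0 in all 3 plates of T3, with a mean of 0.09 (0.04 to 0.13), and below 0 in all 3 plates of T9, with a mean of -0.14 (-0.24 to -0.04). The difference was 0.23. Between cells with and without a UMI of *Sox9*, the ratio was below 0 in all 3 plates of T3 (mean -0.13, -0.25 to -0.05) and above 0 in all 3 plates of T9 (mean 0.20, 0.12 to 0.35), a difference of 0.33. Neither difference was tested. Within single time points the fitted log2 fold change between Scx+ and Scx- cells was 0.09 at T3 (SE 0.18, adjusted p = 0.904, edgeR). At T9 it was -0.15 (SE 0.19, adjusted p = 0.989), and neither was called.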

How the results depend on the processing

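Of 196 repeats of the 13 called results of the Sox genes, 158 kept their call, and 38 kept the direction without it. *Sox11* was called lower at T9 than at T0 under every alternative run (-2.88 to -3.61), and at T3 than at T0 as well (-0.61 to -1.19). Between T3 and T6, the number of the 7 genes called was 1 with library totals, 1 with only the 6 plates compared and 0 with the replicate block, where 2 were called. Between T6 and T9, where 1 was called, it was 0 with library totals, the replicate block or only 6 plates, 2 with DESeq2, and 3 without a filter or with the kind of plate as a covariate. In the tendon, where 0 were called, it was 1 without a filter and 1 with the replicate block, *Sox11* in both (adjusted p = 0.0150 and 0.0391). Between Scx+ and Scx- cells, where *Sox9* alone was called, it was 2 without a filter and 2 with thinned cells. Of the shares of cells, 2 were called, against 0 with at least 2 UMIs, 3 with thinning to 5000 UMIs (*Sox9* the third) and 6 without thinning. The share of *Sox12* was also called without the wells of pluripotent or epithelial markers, at -6.89 percentage points (exact permutation test, adjusted p = 0.0424). Without each replicate in turn, the number called was 1 to 3 (T3 against T0), 0 to 1 (T6 against T3), 0 to 3 (T9 against T6), 2 to 6 (T9 against T0), 0 to 0 (tendon), 1 to 2 (Scx), 0 to 0 (*Sox9*, also for its difference between T0 and later) and 0 to 2 (shares). Without a T0 plate the share test cannot pass after adjustment.

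None of the results that turned in direction was called. With the kind of plate as a covariate, T3 against T0 was 0.19 for *Sox12* and 0.26 for *Sox6*, and T6 against T3 was -0.26 for *Sox6*. With library totals *Sox8* was at -0.0675 (T9 against T6) and -0.21 (T9 against T0). With the replicate block *Sox5* was at 0.0187 (T6 against T3) and *Sox4* at 0.00029 in the tendon. Without a filter *Sox4* was at 0.0111 (Scx), and with thinned cells *Sox11* was at -0.0120 and *Sox6* at -0.00844 (*Sox9*+ against *Sox9*-). Without 1 replicate the range was -0.38 to 0.10 (*Sox12*, T3 against T0), -0.40 to 0.0592 (*Sox12*), -0.35 to 0.34 (*Sox5*) and -0.27 to 0.49 (*Sox6*) for T6 against T3, and -0.75 to 0.67 (*Sox5*) for T9 against T6. In the tendon it was -0.25 to 0.27 (*Sox4*), -0.14 to 0.49 (*Sox12*), -0.32 to 0.22 (*Sox6*) and -0.36 to 0.66 (*Sox9*). For Scx it was -0.10 to 0.00589 (*Sox4*) and -0.71 to 0.27 (*Sox5*), and for *Sox9*+ cells -0.17 to 0.13 (*Sox5*) and -0.0892 to 0.0312 (*Sox8*). The cause of these changes was not tested.

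Counts over all genes moved by more than 1.5 times as follows. T6 against T3 had 567 calls, and 299 with library totals, 874 with DESeq2, 1010 without a filter, 1483 with the covariate and 264 with 6 plates. T9 against T6 had 217, and 90, 548, 684, 813 and 45 in that order, and 113 with the block. The tendon had 560, and 1415 without a filter and 1108 with the block. Scx had 325, and 207 with DESeq2 and 557 without a filter, and *Sox9* 82 and 189 without a filter. Without 1 plate, T6 against T3 had 291 (T6-1), 300 (T6-3), 303 (T3-1), 326 (T3-3) and 890 (T6-2), and T9 against T6 had 35 (T9-1), 44 (T6-3), 48 (T6-1), 71 (T9-2), 675 (T6-2) and 852 (T9-3). For Scx it was 214 (T6-1) and 215 (T9-1), and for *Sox9* 44 (T0-1) and 49 (T9-3). Fewer than 100 UMIs per time point limit *Sox5* after T0, and 56 UMIs limit *Sox6* at T9.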
